A study of Saccharomyces cerevisiae with 8 samples.

Results

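The COS genes of budding yeast (Saccharomyces cerevisiae) were followed across 4 groups of cultures, each with 2 arrays that the labels call biological replicates. The groups were strains deleted for DOT1 (dot1), SWI4 (swi4) or ARD1 (ard1), and a wild type (wt). Every culture was in YPD, a rich medium, at 30 C and was harvested at an OD600 (a measure of culture density) of 0.7, with no further treatment named, and the RNA went onto Affymetrix arrays. The sources used here give neither the mating type nor the parental strain, nor whether the replicates came from separate clones, so the p-values measure the spread between these arrays only. Members were the probe sets whose annotated symbol is COS followed by a number. That pattern found 9 of the 5814 probe sets, of which 8 belong to the subtelomeric family and 1, COS111, does not. The 8 genes were COS2, COS4, COS6, COS7, COS8, COS9, COS10 and COS12, out of 5449 genes tested, each with 1 probe set. They account for 8 of the 11 COS family genes in the R64 gene table, and the other 3, COS1, COS3 and COS5, are not analysed here.

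The COS genes encode related membrane proteins and lie next to chromosome ends, where the Sir proteins, recruited by the telomere-binding protein Rap1, can silence transcription. Cos proteins are known to help sort ubiquitinated cell-surface proteins into multivesicular bodies, the endosomes that deliver them to the vacuole for degradation. Dot1 is a methyltransferase of histone H3, Swi4 binds DNA as part of the cell-cycle factor SBF, and Ard1 is the catalytic subunit of the N-terminal acetyltransferase NatA, one of whose known substrates is Sir3. The title of the series asks how Dot1 and its mark bear on silencing in native heterochromatin.

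In the R64 gene table, used here for names and gene order, COS12 (YGL263W, left arm of chromosome VII), COS7 (YDL248W, IV left) and COS2 (YBR302C, II right) are the outermost protein-coding genes on their arms. COS6 (YGR295C) is gene 2 from the right end of chromosome VII, and COS8 (YHL048W, VIII left) and COS10 (YNR075W, XIV right) are each gene 4 from their end. COS9 (YKL219W, XI left) is gene 5 and COS4 (YFL062W, VI left) is gene 6. The probe sets of COS2, COS4 and COS7 carry the array design's mark for probes shared between transcripts. Their values can include near-identical COS copies and are uncertain for that reason, whereas the other 5 probe sets carry no such mark.

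Values are intensities per probe set on the authors' linear RMA scale. RMA removes background and scales arrays alike, but the deposited arrays did not all have like medians, as given below. Differences are on the log2 scale with their standard error (SE) from 1 limma fit over the 8 arrays, and a gene was called where its Benjamini-Hochberg adjusted p over all 5449 genes was under 0.05. Because a culture was measured in bulk, fewer cells with a transcript and less of it per cell cannot be told apart. Each deleted gene was called lower in its own mutant, with log2 differences of −3.31 for DOT1, −0.91 for SWI4 and −5.23 for ARD1. SWI4 was only 1.88-fold lower and was dim in all groups (mean log2 intensity 4.22 in swi4 and 5.12 in wt), and its call was lost without swi4 replicate 1 (adjusted p = 0.118) or swi4 replicate 2 (0.0967). The call of DOT1 was lost with only dot1 and wt fitted (adjusted p = 0.0839). Array medians ran from 623 to 644 except in wt replicate 2, at 713, and relative to wt the median over all genes lay at −0.07 for dot1, at −0.10 for swi4 and at −0.065 for ard1, or at 0.01, 0.00 and 0.01 after median centring. With 2 arrays a group the smallest two-sided exact permutation p is 0.333, so calls rest on the fit across genes.

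COS12, the outermost gene of the left arm of chromosome VII, rose in every deletion strain. Replicates 1 and 2 had intensities of 862 and 724 for dot1, of 1172 and 1108 for swi4, and of 1378 and 1289 for ard1, against 372 and 249 for wt. No array of a deletion strain overlapped with a wt array, and the order of the means was ard1, swi4, dot1, wt. The rise was 2.60-fold in dot1 (log2 difference 1.38 ± 0.19 SE, 95% interval 0.92 to 1.83, adjusted p = 0.0245), 3.75-fold in swi4 (1.91 ± 0.19, 1.45 to 2.36, adjusted p = 0.00400) and 4.38-fold in ard1 (2.13 ± 0.19, 1.67 to 2.59, adjusted p = 0.00193). The gap between the wt arrays, 0.58 on the log2 scale, was wider than the 0.25, 0.08 and 0.10 within dot1, swi4 and ard1. The rise in dot1 was not called without dot1 replicate 1 (1.25, adjusted p = 0.11), dot1 replicate 2 (1.50, adjusted p = 0.0749) or wt replicate 2 (1.09, adjusted p = 0.0595), nor when only dot1 and wt were fitted (adjusted p = 0.303). In swi4 it was not called without swi4 replicate 1 (1.86, adjusted p = 0.0574), and in ard1 it was called whichever of the 4 arrays was left out.

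**Figure D1:**
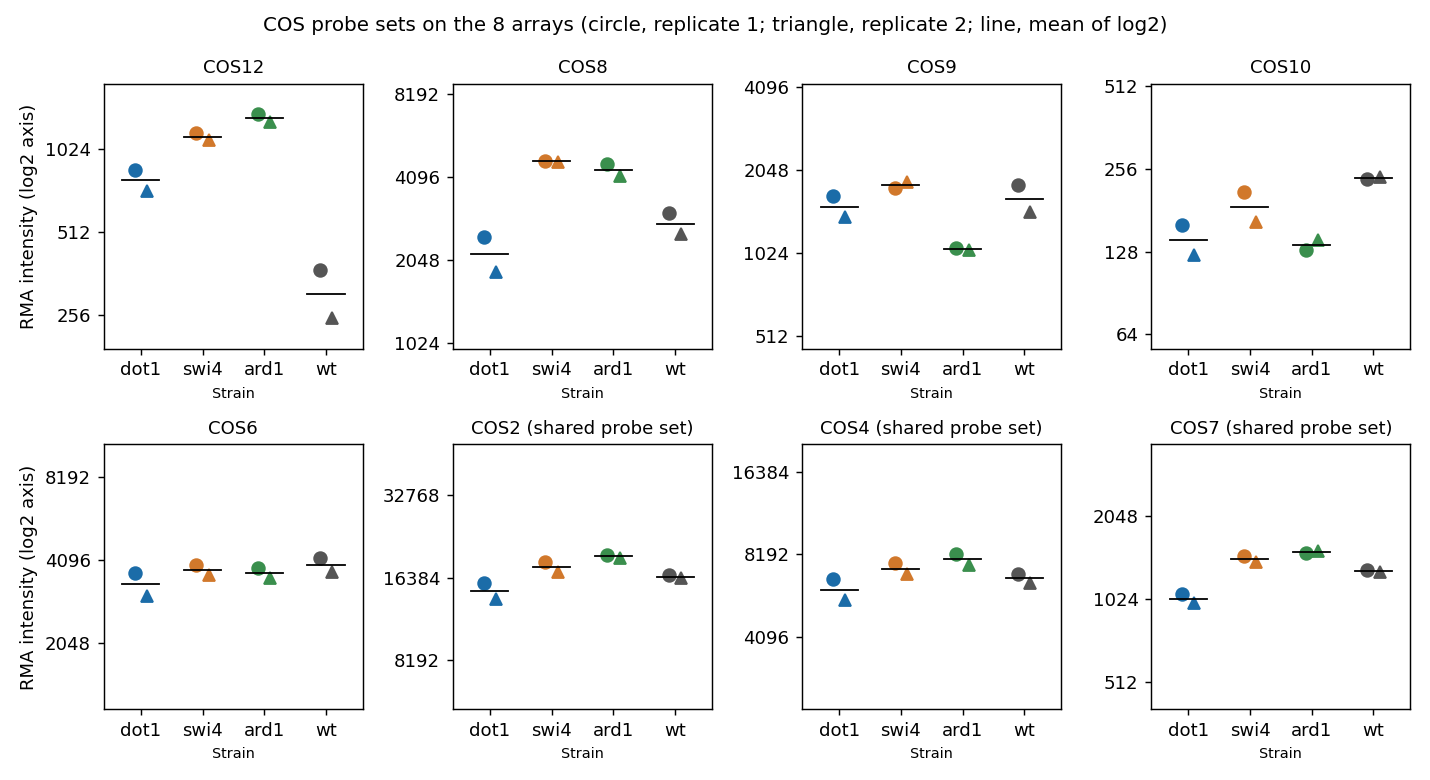
RMA intensity (log2 axis, each panel spanning the same fold range) of the 8 COS probe sets on each array, with strains from left to right as dot1, swi4, ard1 and wt. COS12 sits at 724 to 1378 in the deletion strains against 249 and 372 in wt, COS8 is high in swi4 and ard1, COS9 is low in ard1, and COS2, COS4, COS6 and COS7 vary less.

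The gene next to COS12, YGL262W, an uncharacterised reading frame, also rose in swi4 and ard1, but it was dim. Intensities of YGL262W were 51.6 and 36.2 for dot1, 85.8 and 86.4 for swi4, and 63.0 and 52.6 for ard1, against 35.7 and 31.9 in wt. The gene was among the dimmest 25%, so it was not tested with those left out. Its log2 difference was 1.35 ± 0.18 in swi4 (adjusted p = 0.00861) and 0.77 ± 0.18 in ard1 (adjusted p = 0.0309), and in dot1 it was 0.36 ± 0.18 without a call (adjusted p = 0.301). The call in swi4 was lost without swi4 replicate 1 or swi4 replicate 2 (adjusted p up to 0.0837), and that in ard1 was lost without any 1 of the 4 arrays (adjusted p from 0.0502 to 0.164). Farther in, the next measured genes, YPS5, a gene of the yapsin protease family, and YGL258W-A, were not called in any deletion strain. For YPS5 the estimates were 0.48, 0.41 and −0.18 (SE 0.22) for dot1, swi4 and ard1. YGL258W-A differed by 0.79, 0.95 and −0.17 in the same strains (SE 0.31).

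COS8, a gene of the left arm of chromosome VIII, rose in swi4 and ard1 and was lowest in dot1. Its intensity was 2484 and 1859 for dot1, 4696 and 4654 for swi4, and 4585 and 4124 for ard1, against 3031 and 2535 in wt. The arrays of swi4 and ard1 all lay above both wt arrays, and those of dot1 lay below them. The rise was 1.69-fold in swi4 (log2 difference 0.75 ± 0.16, 95% interval 0.37 to 1.14, adjusted p = 0.0314) and 1.57-fold in ard1 (0.65 ± 0.16, 0.27 to 1.03, adjusted p = 0.0358). In dot1 the difference was −0.37 ± 0.16 (−0.75 to 0.02, adjusted p = 0.239) and was not called. Without swi4 replicate 1, swi4 replicate 2 or wt replicate 2 the adjusted p in swi4 was 0.184, 0.162 and 0.111, and without ard1 replicate 1, ard1 replicate 2 or wt replicate 2 that in ard1 was 0.177, 0.126 and 0.0989. With only the groups compared in the fit they were 0.0597 in swi4 and 0.0666 in ard1.

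Neither measured gene beside COS8 was called against wt. YHL048C-A, on its end side, had differences of −0.53, 0.00 and −0.14 (SE 0.17) for dot1, swi4 and ard1. ARN2, which encodes a siderophore transporter and lies on the other side, differed by −0.49 ± 0.23, −0.88 ± 0.23 and 0.24 ± 0.23 in the same strains, with adjusted p = 0.0507 in swi4. In swi4 the estimate for ARN2 had the opposite sign to that of COS8, and it was called with the dimmest genes left out (adjusted p = 0.0442) and with the trended robust prior (0.0266).

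COS9 fell in ard1 alone among the called differences from wt. Its intensity was 1645 and 1380 for dot1, 1760 and 1856 for swi4, and 1067 and 1047 for ard1, against 1812 and 1438 in wt. Both ard1 arrays lay below all 6 others, whereas dot1 and swi4 overlapped with wt. The fall was 1.53-fold (log2 difference −0.61 ± 0.14, 95% interval −0.95 to −0.28, adjusted p = 0.0286), and the differences in dot1 and swi4 were −0.10 ± 0.14 and 0.16 ± 0.14. The call was lost after median centring (−0.54, adjusted p = 0.0778) and quantile normalization (−0.55, adjusted p = 0.0581), with only ard1 and wt fitted (adjusted p = 0.0827), and without ard1 replicate 1 (adjusted p = 0.123), ard1 replicate 2 (0.154) or wt replicate 1 (−0.45, adjusted p = 0.0655).

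The nearest measured gene on the inner side of COS9, SRY1, which encodes a hydroxyaspartate dehydratase, rose in all 3 deletion strains. The estimates were 0.86 ± 0.15 for dot1 (adjusted p = 0.0423), 1.49 ± 0.15 for swi4 (adjusted p = 0.00401) and 0.79 ± 0.15 for ard1 (adjusted p = 0.0156). In ard1 the neighbours therefore had called differences of opposite sign. On the end side FRE2, a ferric reductase gene, differed by −0.19, −0.66 and −0.73 (SE 0.29) in dot1, swi4 and ard1 and was not called. The call of SRY1 in dot1 was kept only without wt replicate 1, and its highest adjusted p on leaving out an array was 0.138 in dot1, 0.0596 in swi4 (without swi4 replicate 1) and 0.113 in ard1, where leaving out either ard1 array ended the call.

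COS10, on the right arm of chromosome XIV, had lower values in the deletion strains than in wt and fell in ard1. Its intensity was 160 and 124 for dot1, 210 and 163 for swi4, and 130 and 141 for ard1, against 234 and 239 in wt. All 6 arrays of deletion strains lay below both wt arrays, which differed by 0.03 on the log2 scale, while the gaps within dot1 and swi4 were 0.37 and 0.36. The fall in ard1 was 1.75-fold (−0.81 ± 0.17, 95% interval −1.20 to −0.41, adjusted p = 0.0199). The differences in dot1, −0.75 ± 0.17 (−1.14 to −0.35, adjusted p = 0.0664), and in swi4, −0.35 ± 0.17 (−0.75 to 0.04, adjusted p = 0.204), were not called. Without ard1 replicate 1, ard1 replicate 2 or wt replicate 2 the adjusted p in ard1 was 0.114, 0.0976 and 0.0522. This probe set was the only one of the 8 among the dimmest 25% of genes.

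The 4 measured genes closest to COS10 were also called lower in ard1, where 12.2% of all genes were called lower. AIF1 and HXT17 were not called after median centring, and AIF1, HXT17 and YNR071C were not after quantile normalization. YNR075C-A and HXT17 were dimmer than COS10 and so also among the dimmest 25% of genes. YNR075C-A had intensities of 45.6 and 40.2 in ard1 against 62.4 and 69.3 in wt. HXT17 had 60.2 and 55.8 in ard1 against 83.0 and 72.4 in wt. YNR075C-A, on the end side, differed by −0.62 ± 0.13 in ard1 (adjusted p = 0.0232). On the inner side AIF1, which encodes a homologue of the mammalian apoptosis-inducing factor, differed by −0.49 ± 0.13 (adjusted p = 0.0426), the hexose transporter gene HXT17 by −0.42 ± 0.12 (adjusted p = 0.0490) and YNR071C by −0.81 ± 0.16 (adjusted p = 0.0166). None of these 4 genes was called in dot1 or swi4, where their differences ran from −0.41 to 0.10. After median centring the adjusted p was 0.108 for AIF1 and 0.161 for HXT17, after quantile normalization it was 0.115, 0.230 and 0.0508 for AIF1, HXT17 and YNR071C, and with only ard1 and wt fitted it was from 0.0560 to 0.121 over the 4 genes. The probe set of HXT17 is of the shared kind, and its call was also lost with the trended robust prior (adjusted p = 0.0695). The calls of AIF1 were lost without any 1 of the 4 arrays, that of HXT17 was kept only without wt replicate 2, that of YNR075C-A only without wt replicate 1, and that of YNR071C was lost without ard1 replicate 2 (adjusted p = 0.111).

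**Figure D2:**
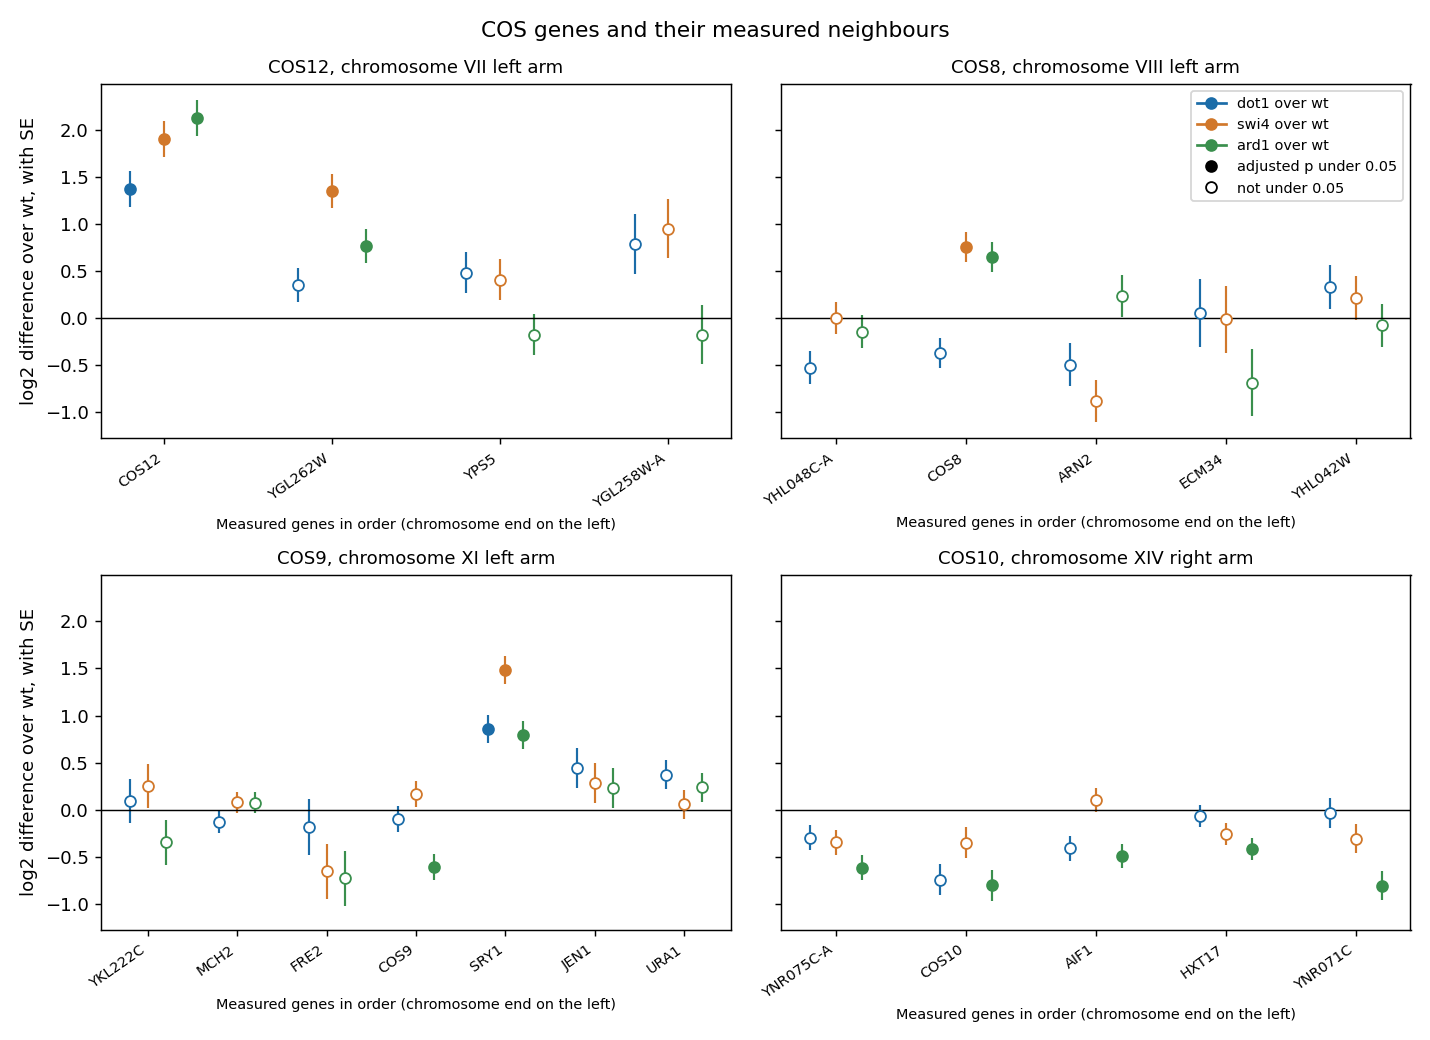
Log2 difference over wt with its SE for COS12, COS8, COS9 and COS10 and the measured genes beside them, in chromosome order with the chromosome end on the left of each panel and filled points for called genes. YGL262W lies above 0 beside COS12 in swi4 (1.35) and ard1 (0.77), SRY1 lies above 0 beside COS9, and all genes shown around COS10 lie below 0 in ard1.

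COS6 was the family member with a probe set of its own that was called in none of the 6 comparisons between groups. Its intensity was 3683 and 3032 for dot1, 3923 and 3627 for swi4, and 3836 and 3513 for ard1, against 4173 and 3714 in wt. Its differences from wt were −0.24 ± 0.13 in dot1 (95% interval −0.54 to 0.07), −0.06 ± 0.13 in swi4 (−0.36 to 0.24) and −0.10 ± 0.13 in ard1 (−0.40 to 0.20). The value in swi4 turned to 0.04 after median centring and 0.01 after quantile normalization.

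The shared probe sets of COS2, COS4 and COS7 had the same order of groups, ard1, swi4, wt, dot1, and none was called against wt. COS2 had 15684 and 13689 for dot1, 18614 and 17197 for swi4, and 19820 and 19369 for ard1, against 16699 and 16297 in wt. COS4 had 6664 and 5584 for dot1, 7612 and 6934 for swi4, and 8235 and 7519 for ard1, against 6964 and 6445 in wt. COS7 had 1065 and 988 for dot1, 1468 and 1394 for swi4, and 1499 and 1533 for ard1, against 1308 and 1284 in wt. For COS7 the dot1 arrays lay below, and the swi4 and ard1 arrays above, both wt arrays, whereas COS4 overlapped with wt in dot1 and swi4. COS7 differed from wt by −0.34 ± 0.09 in dot1 (95% interval −0.54 to −0.13, adjusted p = 0.0889), 0.14 ± 0.09 in swi4 and 0.23 ± 0.09 in ard1. COS2 differed by −0.17, 0.12 and 0.25 (SE 0.10) for dot1, swi4 and ard1. COS4 differed by −0.14, 0.12 and 0.23 (SE 0.12) in the same strains. Since these probe sets can share signal, their like order is not separate evidence.

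**Figure D3:**
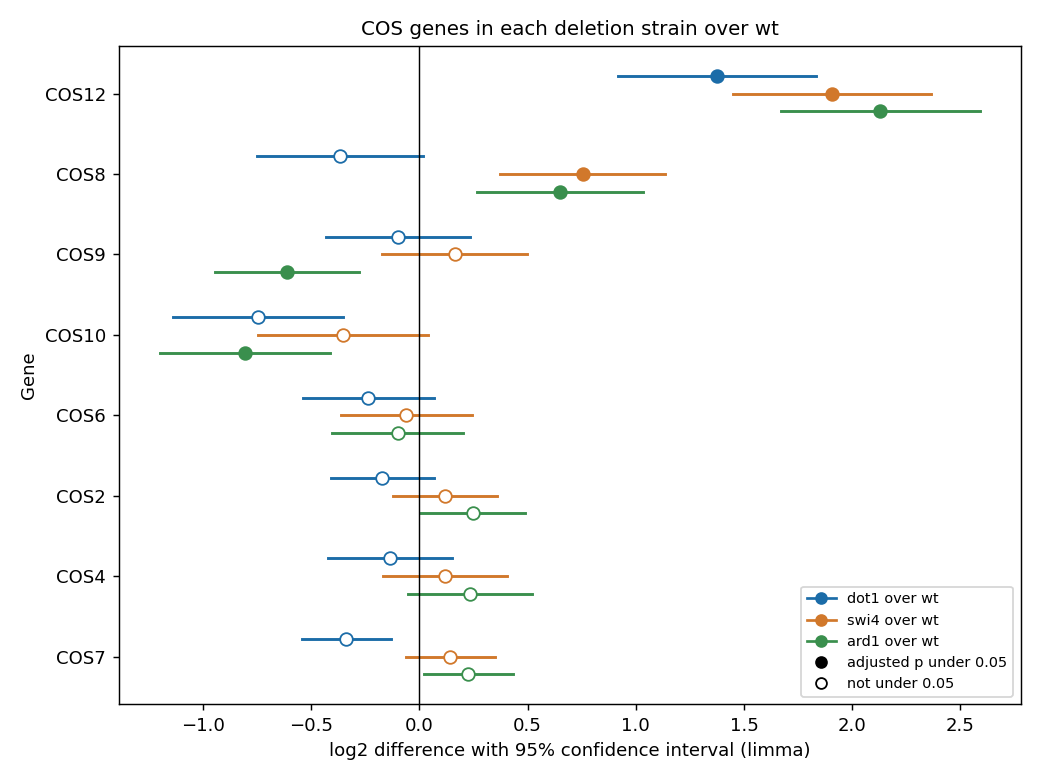
Log2 difference over wt with its 95% confidence interval (limma) for the 8 COS genes in dot1, swi4 and ard1, with filled points for adjusted p under 0.05. The 3 COS12 estimates lie at 1.38 to 2.13, COS8 differs in sign between dot1 and the other strains, and the COS10 estimates are all below 0.

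Counted over the family, 1 of 8 genes rose and 0 fell in dot1 (COS12), where 2.46% of all genes tested were called, 1.12% higher and 1.34% lower. In swi4 2 of 8 rose and 0 fell (COS8 and COS12), with 12.2% of all genes called, 5.16% higher and 7.01% lower. In ard1 2 of 8 rose (COS8 and COS12) and 2 fell (COS9 and COS10), with 18.5% of all genes called, 6.26% higher and 12.2% lower. Over all genes 281 were called higher and 382 lower in swi4 (426 and 299 after median centring, 456 and 361 after quantile normalization) and 341 higher and 665 lower in ard1 (511 and 508, and 555 and 562). With limma p-values left unadjusted, the family counts under 0.05 were 3, 2 and 6 in dot1, swi4 and ard1, beside 22.5%, 30.2% and 32.3% of all genes. The family median lay at −0.20 for dot1, at 0.13 for swi4 and at 0.23 for ard1, against −0.07, −0.10 and −0.065 over all genes. In dot1 7 of the 8 estimates were negative and COS12 was the exception, in swi4 6 of 8 were positive and in ard1 5 of 8. Both dot1 arrays lay above both wt arrays for 1 COS gene and below them for 5, where 15.8% and 26.8% of all genes did so. The swi4 arrays lay above for 4 and below for 1 (22.5% and 37.1% of all genes), and the ard1 arrays above for 5 and below for 2 (21.5% and 35.6%). The 3 comparisons share the wt arrays, so a high or low wt value of a gene enters all of them. The shared probe sets of COS2, COS4 and COS7 can share signal, so they do not count as separate evidence in these numbers. On leaving out 1 array, the counts of called COS genes fell in most fits, but the number called over all genes changed as well. These fits leave 1 array in a group, so the counts are not read as a result about the COS genes. Estimates of the called genes kept their sign. COS12 ran from 1.09 to 1.67 in dot1, 1.62 to 2.19 in swi4 and 1.84 to 2.42 in ard1. COS8 ran from 0.63 to 0.88 in swi4 and 0.52 to 0.78 in ard1. In ard1 COS9 ran from −0.78 to −0.445 and COS10 from −0.87 to −0.75.

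Comparing the deletion strains with each other leaves the wt arrays out of the difference. All 8 genes had higher estimates in swi4 than in dot1, and 6 of 8 in ard1 than in dot1. The family medians were 0.34 and 0.39, against −0.01 and 0.01 over all genes. Both comparisons share the 2 dot1 arrays, so a low dot1 value of a gene enters both. In dot1 the family median of replicate 2 minus replicate 1 was −0.25 on the log2 scale, against 0.02 over all genes. COS8 was the gene called in both comparisons. It was 2.18-fold higher in swi4 than in dot1 (1.12 ± 0.16, 95% interval 0.74 to 1.50, adjusted p = 0.0359), a comparison in which 1.01% of all genes were called, 0.367% higher and 0.642% lower, and 2.02-fold higher in ard1 than in dot1 (1.02 ± 0.16, 0.63 to 1.40, adjusted p = 0.0128), where 14.1% were called, 5.67% higher and 8.44% lower (309 and 460 genes, or 496 and 473 after median centring). At an unadjusted p under 0.05 the family counts were 5 in swi4 over dot1 and 6 in ard1 over dot1, beside 11.7% and 31.5% of all genes. In ard1 against dot1, COS7 (0.56 ± 0.09, adjusted p = 0.0116), COS2 (0.42 ± 0.10, adjusted p = 0.0390) and COS12 (0.75 ± 0.19, 0.30 to 1.21, adjusted p = 0.0466) were also higher. The probe sets of COS2, COS4 and COS7 can share signal, so these genes are not separate evidence in the calls or counts. COS12 did not pass in swi4 against dot1 (0.53 ± 0.19, 0.07 to 0.99, adjusted p = 0.330) or in swi4 against ard1 (−0.23 ± 0.19, −0.68 to 0.23, adjusted p = 0.467).

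Between swi4 and ard1, where 15.3% of all genes were called, 9.07% higher and 6.2% lower, the 1 called family member was COS9, 1.71-fold higher in swi4 (0.77 ± 0.14, 95% interval 0.44 to 1.11, adjusted p = 0.0157). At an unadjusted p under 0.05 limma gave 2 of 8, beside 32.2% of all genes. The other 7 estimates lay between −0.23 for COS12 and 0.45 for COS10, whose interval was 0.06 to 0.85 (adjusted p = 0.112). On leaving out any 1 of the 4 arrays, the estimate of COS9 lay between 0.74 and 0.81, but its call was lost. With only swi4 and ard1 fitted, COS9 (adjusted p = 0.00106) and COS10 (0.45, 0.0327) were called, where 2227 of all genes were. COS8 over dot1 was not called in swi4 without dot1 replicate 2, swi4 replicate 1 or swi4 replicate 2 (adjusted p = 0.129, 0.3 and 0.256), nor in ard1 without ard1 replicate 1 or ard1 replicate 2 (0.0927 and 0.0687). COS7 in ard1 over dot1 was not called without either ard1 array (0.0793 and 0.0948), and COS2 and COS12 there were not called without any 1 of the 4 arrays. After median centring the calls of COS2 (adjusted p = 0.0573) and COS12 (0.0630) in ard1 over dot1 were lost, leaving 2 of 8 genes.

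**Figure D4:**
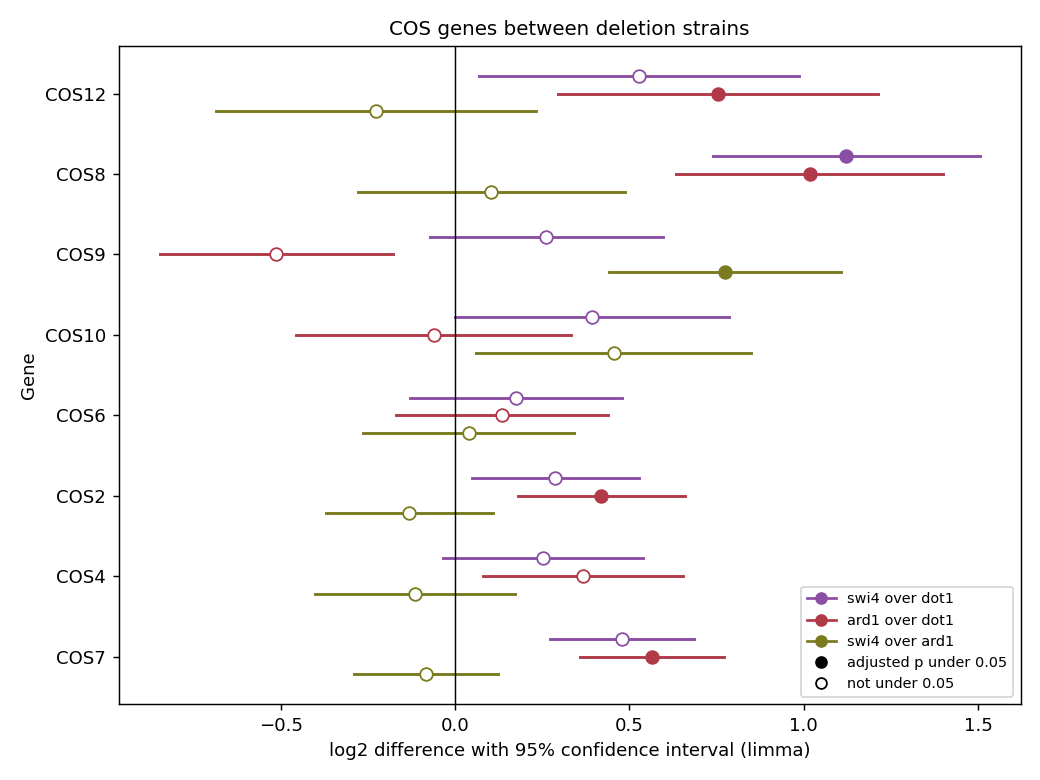
Log2 difference with its 95% confidence interval (limma) for the 8 COS genes in swi4 over dot1, ard1 over dot1 and swi4 over ard1, with filled points for adjusted p under 0.05. COS8 lies near 1 in both comparisons over dot1 and near 0 between swi4 and ard1, while COS9 lies at 0.77 in swi4 over ard1.

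Among 32 measured neighbours, taken as up to 3 genes on each side of each COS gene, 1 rose and 1 fell in dot1, 4 rose and 0 fell in swi4, and 3 rose and 6 fell in ard1. Over all genes 1.12% rose and 1.34% fell for dot1, 5.16% and 7.01% for swi4, and 6.26% and 12.2% for ard1. After median centring and after quantile normalization 3 neighbours were higher and 3 lower in ard1, and in dot1 2 were higher and 0 lower after median centring. In dot1 the fall was that of YFL067W (−0.49 ± 0.09, adjusted p = 0.0423), which lies on the end side of COS4. That call was lost after median centring (−0.42, adjusted p = 0.0811), after quantile normalization (−0.38, 0.0984), with the trended robust prior (0.0751) and with only dot1 and wt fitted (0.332). On the inner side of COS4 the vitamin B6 synthesis genes SNZ3 (1.15 ± 0.14) and SNO3 (1.08 ± 0.17) rose in swi4, and DDI3, which encodes a cyanamide hydratase, rose in ard1 (1.10 ± 0.20). In ard1 the falls besides those around COS10 were SOR2 (−0.64 ± 0.16), a sorbitol dehydrogenase gene near COS7, and YBR298C-A (−0.55 ± 0.13) near COS2. YBR298C-A was dim, at 26.5 and 26.2 in ard1 against 39.8 and 37.2 in wt. Its call was lost after median centring (adjusted p = 0.0772) and with only ard1 and wt fitted (0.0556). Leaving out any 1 array ended both calls, with estimates of −0.73 to −0.55 for SOR2 and −0.59 to −0.50 for YBR298C-A. The probe sets of SNZ3, SNO3, DDI3 and SOR2 are of the shared kind. The medians of the 32 neighbours were 0.07, 0.07 and −0.14 in dot1, swi4 and ard1. On leaving out an array the count of called neighbours changed in each deletion strain, as did the count over all genes. It is therefore not a result about the neighbours.

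The DUP240 genes encode a family of membrane proteins related to the Cos proteins. Of 5 measured genes of 10 listed, limma called 0 in dot1 and 0 in ard1 (1 and 0 at an unadjusted p under 0.05) and 1 in swi4, where 2.46%, 18.5% and 12.2% of all genes were called in dot1, ard1 and swi4. The gene called was PRM8, a pheromone-regulated membrane protein gene, with intensities of 769 and 794 in swi4 against 565 and 523 in wt (0.52 ± 0.11, adjusted p = 0.0272). On leaving out an array its estimate ran from 0.47 to 0.58, and its call depended on which array was left out. The medians of the 5 genes were 0.09, 0.14 and −0.12 in dot1, swi4 and ard1.

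The machinery that sorts cargo together with the Cos proteins comprises the ubiquitin ligase Rsp5, its adaptors, and the ESCRT complexes that form multivesicular bodies. Of 23 such genes, limma called 0 in dot1 (1 at an unadjusted p under 0.05), 2 in swi4 and 4 in ard1, all of them lower. Over all genes 12.2% and 18.5% were called in either direction in swi4 and ard1, and 7.01% and 12.2% were called lower. In ard1 VPS60, another ESCRT-related gene, was called higher after median centring (0.45, adjusted p = 0.0224) and after quantile normalization (0.44, 0.0177). RSP5 itself had intensities of 3529 and 3672 in swi4 and 3638 and 3786 in ard1, against 4919 and 4684 in wt. It fell by 0.42 ± 0.09 in swi4 (adjusted p = 0.0336) and 0.37 ± 0.09 in ard1 (adjusted p = 0.0345). VPS28, an ESCRT-I subunit gene, fell in swi4 (−0.63 ± 0.10, adjusted p = 0.0130). In ard1 the others were VPS36 of ESCRT-II (−0.81 ± 0.14), the deubiquitinase gene DOA4 (−0.74 ± 0.14) and MVB12 of ESCRT-I (−0.63 ± 0.14). RSP5 was not called after median centring in swi4 (−0.32, adjusted p = 0.116) or ard1 (−0.30, 0.120), and MVB12 was not in ard1 (−0.56, 0.0676). After quantile normalization neither RSP5 (−0.28, adjusted p = 0.0748) nor MVB12 (−0.59, 0.0737) was called in ard1. With only the groups compared fitted, RSP5 (adjusted p = 0.105) and VPS28 (0.0692) in swi4 were not called. The same held for RSP5 (0.115) and MVB12 (0.0904) in ard1. The medians over the list were 0.02, −0.17 and −0.09 in dot1, swi4 and ard1. Leaving out an array changed the count of called genes of this list in swi4 and ard1, as it did over all genes. The called estimates kept their sign, from −0.71 (VPS28) to −0.38 (RSP5) in swi4 and from −0.98 (VPS36) to −0.34 (RSP5) in ard1.

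Of 21 genes of silencing and telomere-binding factors, limma called 0 in dot1 (5 at an unadjusted p under 0.05), 6 in swi4 and 3 in ard1, all of them lower. Over all genes 22.5% had an unadjusted p under 0.05 in dot1, and 7.01% and 12.2% were called lower in swi4 and ard1, so the counts in dot1 and ard1 lie near the background. In ard1 SAS5 was called higher after quantile normalization (0.35, adjusted p = 0.04999). In swi4 the falls were RAP1, the telomere-binding protein gene (−0.92 ± 0.11, adjusted p = 0.00592), SIR2, the silencing deacetylase gene (−0.76 ± 0.12, adjusted p = 0.0117), REB1 (−0.98 ± 0.22) and TBF1 (−0.64 ± 0.12), which encode DNA-binding factors, SAS5 (−0.58 ± 0.09), a histone acetyltransferase subunit gene, and the H2A.Z gene HTZ1 (−0.57 ± 0.09). SIR2 had intensities of 295 and 317 in swi4 against 472 and 569 in wt, and RAP1 had 469 and 511 in swi4 against 861 and 994 in wt. In ard1 HTZ1 (−0.40 ± 0.09), RIF2 (−0.69 ± 0.17), which encodes a Rap1 partner at telomeres, and the Ku subunit gene YKU70 (−0.48 ± 0.13) fell. After median centring TBF1 in swi4 (adjusted p = 0.0501) and HTZ1 and RIF2 in ard1 (0.0716 and 0.0556) were not called. In ard1 RIF2 was also not called after quantile normalization (−0.55, adjusted p = 0.0856), nor YKU70 with the trended robust prior (0.0721). With only the groups compared fitted, 1 call was left in swi4, that of RAP1, and 0 in ard1. SIR3 differed by −0.04, −0.10 and −0.21 (SE 0.19) and SIR4 by 0.00, −0.28 and 0.27 (SE 0.22) in dot1, swi4 and ard1, without a call. On leaving out an array the count of called silencing genes changed in each deletion strain, as did the count over all genes. It is therefore not a result about these genes. The called estimates kept their sign, from −1.25 (REB1) to −0.54 (SAS5) in swi4 and from −0.87 (RIF2) to −0.35 (YKU70) in ard1. The part of these factors in the COS levels was not tested.

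The genes most like each called COS gene were taken as those with the smallest root mean square (RMS) difference between profiles over the 8 arrays, each centred on its own mean in log2. For COS12, whose own RMS about its mean was 0.84, they were ARG1, the argininosuccinate synthetase gene, at 0.21, FUI1, a uridine permease gene, at 0.31, and CEM1, a mitochondrial fatty acid synthesis gene, at 0.32. For COS8 (own RMS 0.48) they were GFD2 at 0.20, YCR051W at 0.20 and DAL7, a malate synthase gene, at 0.22. These are values near or above 0.20 and thus looser matches relative to the spread of COS8 than those of COS12. For COS9 (own RMS 0.31) they were IRC4 at 0.06, AIM14 at 0.08 and YSP3 at 0.09. For COS10 (own RMS 0.35) they were the seripauperin genes PAU4 at 0.09, PAU14 at 0.12 and PAU18 at 0.15, members of another subtelomeric family, measured by probe sets that are of the shared kind.

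COS111, which shares only its symbol with the family and lies away from the chromosome end, had intensities of 375 and 355 for dot1, 398 and 371 for swi4, and 242 and 231 for ard1, against 343 and 310 in wt. It fell in ard1 (−0.46 ± 0.10, adjusted p = 0.0208) and was not called in dot1 (0.16 ± 0.10) or swi4 (0.24 ± 0.10). The call was lost after median centring (−0.39, adjusted p = 0.0827), with quantile normalization (−0.42, adjusted p = 0.0810), with only ard1 and wt fitted (adjusted p = 0.0886), and without ard1 replicate 1 (0.0914), ard1 replicate 2 (0.143) or wt replicate 1 (0.0520).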

How the data were processed

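The authors deposited 1 RMA intensity for each probe set on each array, per the submitters' processing notes, which give no version. Their range, 15.2 to 35540, shows a linear scale, so tests were run on the log2 of each deposited value. Of 5814 probe sets, 5498 had 1 gene symbol in the platform annotation, and none had several. Symbols were updated through the R64 gene table, which matched all 5498. For 47 genes with several probe sets the one with the highest mean was used, giving 5449 genes. Differences came from limma 3.58.1 (R 4.3.3; lmFit and eBayes, 4 group means, 4 residual and 2.73 prior degrees of freedom), two-sided, with Benjamini-Hochberg adjustment within each comparison. All adjusted p-values were obtained with limma. The fit was tested on simulated data with independent noise on each array, which does not cover replicate differences that correlate between groups.

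Alternatives were median centring, quantile normalization, fitting only the groups compared, a replicate block, other rules for probe sets, leaving out dim genes, a trended robust prior, and leaving out each array. Each of the 8 arrays entered the fit, and precision is limited by how few they are. The build behind the array annotation is not stated in those sources, so gene order but no coordinates was used, and no sequences were used. Named genes were all COS genes, the deleted genes, up to 5 called genes per list and comparison with the largest differences, the nearest neighbours of called COS genes, and the 3 closest profiles; SIR3, SIR4, VPS60, ABF1, YPS5, YGL258W-A and the remaining called neighbours and silencing genes were added after their values were seen. The members and lists were chosen with earlier results of these data known.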

Additional observations from a re-analysis of the deposited data

How the results depend on the processing

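The COS genes had 13 calls over the 6 comparisons. Median centring kept 10 of them, quantile normalization 11, and fitting only the groups compared 7; the mean over probe sets, testing every probe set, and a trended robust prior kept all 13, and leaving out the dimmest 25% of genes kept the 12 that could be tested. Called values kept their sign in each of these and on leaving out any array, and 1 call, COS12 in ard1, was kept whichever array was left out. Fitting only the groups compared gave 0 called COS genes in dot1, 1 in swi4, 2 in ard1, 0 in swi4 over dot1 and 2 in swi4 over ard1; it gave 0 DUP240 genes in swi4, 0 and 2 endosomal sorting genes in swi4 and ard1, 1 and 0 silencing genes in swi4 and ard1, and 0 and 4 neighbours in dot1 and ard1. Median centring gave 2 COS genes in ard1 over dot1, 1 endosomal sorting gene in swi4 and 1 silencing gene in ard1. Quantile normalization gave 0 neighbours in dot1, and leaving out dim genes gave 2 neighbours in ard1, where fewer genes were tested. Otherwise the cause was not tested.

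On leaving out 1 array, the counts of called genes changed for the COS family and for the lists, and also over all genes. These fits leave 1 array in a group, so such changes are not a result particular to the COS genes or the lists.

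The labels number the replicates 1 and 2 in every group and do not say that a number marks a shared batch. Differences of replicate 2 minus replicate 1 correlated over genes by 0.35 to 0.75 between groups. Their family medians were −0.25, −0.10, −0.065 and −0.14 in dot1, swi4, ard1 and wt, against 0.02, 0.00, 0.03 and 0.14 over all genes. The shared probe sets of COS2, COS4 and COS7 enter these family medians. With the replicate block all 13 COS calls were kept and 5 were added, which gave 3 COS genes in dot1 (COS7, COS10 and COS12) and 2 in swi4 over dot1. It gave 6 in ard1 over dot1 against 4 without it, adding COS4 as higher (0.37, adjusted p = 0.0202) and COS9 as lower (−0.51, 0.0217), and COS9 there was also called with the trended robust prior (0.0450) and with dim genes left out (0.0486). The replicate block gave 2 and 1 DUP240 genes in swi4 and ard1, 7 endosomal sorting genes in ard1 (VPS60 higher and 6 lower), 4 and 5 silencing genes in dot1 and ard1 (in ard1 ABF1 higher and 4 lower), and 10 and 11 neighbours in dot1 and swi4. Over all genes it called 793 in dot1, 1397 in swi4 and 1517 in ard1, against 134, 663 and 1006 without it, and 153 in swi4 over dot1, 1582 in ard1 over dot1 and 1547 in swi4 over ard1, against 55, 769 and 832. Fitting only the groups compared called 0, 176 and 405 genes in dot1, swi4 and ard1, 16 in swi4 over dot1 and 2227 in swi4 over ard1, and in dot1 median centring called 233, quantile normalization 215, leaving out dim genes 216 and the trended robust prior 333. Signal over background cannot be read from values whose background was removed before deposit.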
